A study of Mus musculus with 6 samples.

Results

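Chronic intermittent hypoxia (CIH) is a mouse model of obstructive sleep apnoea, and the arrays described here compared, within hearts of exposed mice, the circular RNAs (circRNAs) that an N6-methyladenosine (m6A) immunoprecipitation retained with those it left in the supernatant. The measurement used the 3 CIH arrays of a series of 6, the other 3 arrays being controls. Each array carried 14236 circRNA probes, each with a red (Cy5) signal for the immunoprecipitate (IP) and a green (Cy3) signal for the supernatant of the same sample. A probe was kept when at least 1 of the channels was well above background on all 3 CIH arrays and no spot carried an outlier mark. This left 4812 circRNAs, 33.8% of those on the array. The quantity given throughout is the log2 of IP over supernatant signal, set to 0 on each array at the mean of added spike-in probes, so positive values mean more signal in the IP.

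The CIH mice were of strain BALB/c and breathed air in which oxygen was lowered to 6% for 60 seconds and then returned to 21% for 60 seconds. The cycle of 2 minutes ran 30 times an hour, 8 hours a day, for 8 weeks. The control arrays were also from BALB/c hearts, under the label "control group". The labels give neither age nor sex, and nothing in them says that the 3 CIH samples came from separate animals, so the spread that p-values are set against may be technical. The extraction text describes a kit for blood and depletion of globin RNA for samples labelled heart. Of the cardiomyocyte markers searched for, 1 of 10 had a probe. That gene was Hspb7, a small heat shock protein of cardiac and skeletal muscle, and it was well above background in both channels on all 3 CIH arrays. Markers of fibroblasts, endothelium, erythroid cells and leukocytes had no probe, so the makeup of the tissue was not checked further.

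m6A is a methyl mark on adenosine that the METTL3 and METTL14 complex writes, that FTO and ALKBH5 can remove, and that YTH domain proteins bind. A circRNA forms when a downstream splice donor joins an upstream acceptor, which leaves a closed loop without free ends that resists RNase R, an exonuclease that digests linear RNA. In heart, circRNAs arise from many muscle genes, and m6A on circRNAs is known to bear on their export, translation and decay. An antibody against m6A pulls down molecules that carry the mark, so the ratio of IP to supernatant is a relative measure for each circRNA and not the share of its molecules that is methylated. The files pair the circRNA probes with numbers and not with host genes, positions or sequences, so circRNAs are given here by probe number. IP was always in Cy5 and supernatant always in Cy3, so a difference between fractions and a difference between dyes cannot be told apart for any single probe.

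Across the 3 CIH arrays most circRNAs lay near the spike-in zero, with a long tail on the supernatant side and a short one on the IP side. The median log2 ratio was 0.07 on CIH 1, 0.07 on CIH 2 and 0.13 on CIH 3, a mean of 0.09 ± 0.034 (SD, n = 3). An exact two-sided sign-flip permutation test of the 3 medians gave p = 0.25, the smallest that 3 arrays allow. The lowest 5% of circRNAs lay below -2.53, -2.78 and -2.67 on CIH 1, 2 and 3. The highest 5% lay above 1.15, 1.01 and 1.09. On CIH 1, 696 circRNAs (14.5%) had at least 2-fold more supernatant signal and 316 (6.57%) at least 2-fold more IP signal. The corresponding counts were 826 and 254 on CIH 2 and 778 and 309 on CIH 3. The supernatant tail was thus the longer one on each of the 3 arrays.

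**Figure D1:**
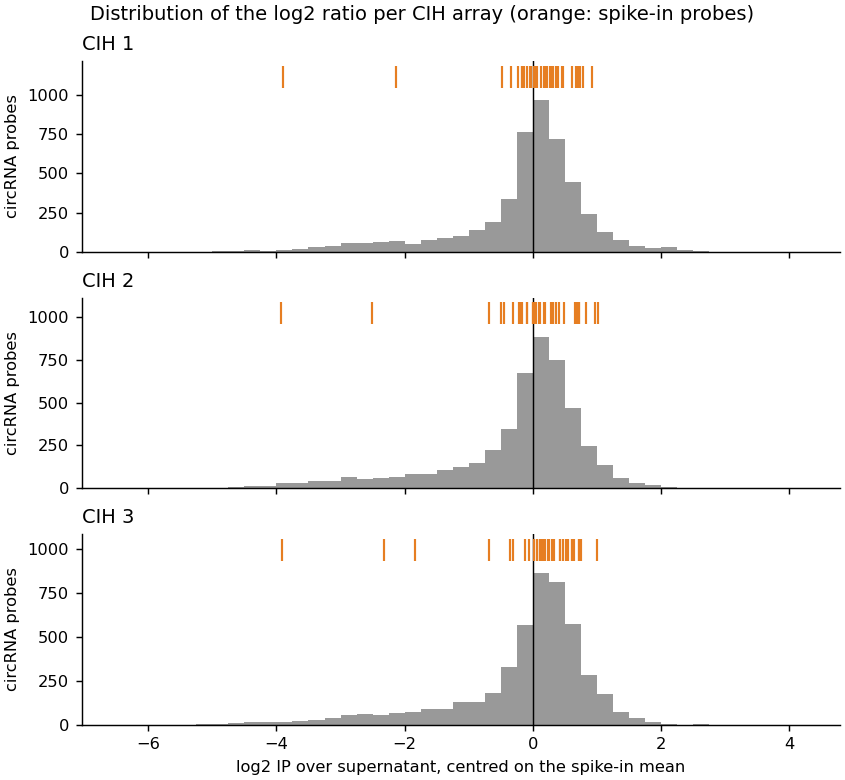
Number of circRNA probes (y axis) by log2 IP over supernatant (x axis), 1 panel per CIH array, for the 4812 probes kept; orange marks are the 33 spike-in probes that set the zero. The medians are 0.07, 0.07 and 0.13, and 5% of probes lie below -2.53, -2.78 and -2.67.

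The zero itself was set by probes that spread widely. The labels state that spike-in RNA was added to both fractions in equal amount, and 33 of the 102 spike-in probes were above background in each channel throughout the 3 CIH arrays. Their log2 ratios before centring had means of -0.03, 0.01 and -0.08 and SDs of 0.88, 0.95 and 0.97 on CIH 1, 2 and 3. After centring, 15 of the 33 lay within 0.5 of zero on all 3 arrays, 2 lay below -1 on all 3 and 0 lay above 1 on all 3. The lowest spike-in probe was at -3.89, -3.93 and -3.91, so it repeated closely between arrays while standing far from the rest. The spike-in median was 0.14, 0.11 and 0.19 above the spike-in mean.

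With the spike-in mean as zero, limma called 2211 of the 4812 circRNAs (45.9%) at an adjusted p under 0.05. The count was 13 without the variance moderated across probes and 470 when tested against a 2-fold limit. Of the 2211, 1066 (22.2% of the 4812) were higher in the IP and 1145 (23.8% of the 4812) were higher in the supernatant. At an unadjusted p under 0.05 the counts were 1403 and 1255. The numbers on the 2 sides were close, but the sizes were not. The median call on the IP side was 0.66 (1.58-fold), and 188 of the 1066 exceeded 2-fold. The median call on the supernatant side was -1.43 (2.70-fold), and 749 of the 1145 exceeded 2-fold. Of the calls over 2-fold, 26 on the IP side and 319 on the supernatant side were well above background in both channels throughout. The rest were kept through 1 bright channel, and their side goes with that. The remaining 2601 circRNAs did not pass, which does not show that they are shared equally between the fractions.

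The calls on the IP side moved with the choice of zero, with the signal processing and with single arrays. With the spike-in median as zero, 507 circRNAs were higher in the IP and 1365 in the supernatant, so the IP side held 27.1% of the calls in place of 48.2%. With the circRNA median as zero the counts were 668 and 1271 (34.5% on the IP side). A line through the spike-ins along signal gave 616 and 1109 (35.7%). A spike-in mean taken without the 2 probes below -1, an alternative added after seeing the data, gave 400 and 1489 (21.2%), and the mean of the 3 array medians was then -0.11 in place of 0.09. All 1145 supernatant calls remained under the spike-in median, and 507 of the 1066 IP calls did. Each other zero tried lowered the mean of the 3 array medians, from 0.09 to between 0.055 (no centring) and -0.11. Lower ratios favour supernatant calls and remove IP calls by construction. No zero that raised the ratios was tried, so these zeros do not show which side is the firmer. Changing the background correction and leaving out dye normalisation together replaced more of the IP calls. Wherever normexp is named in this text, dye normalisation is left out as well. With normexp, 844 circRNAs were higher in the IP and 1177 in the supernatant. These kept 289 of the 1066 IP calls and 953 of the 1145 supernatant calls. With the local background subtracted from the median signal and no dye normalisation, the counts were 1037 and 1238, and 422 and 1002 of the calls were kept. The software's own background-subtracted signal without dye normalisation, an unplanned alternative, gave 879 and 1061 among 4751 circRNAs. It kept 668 and 1002 of the calls. Without CIH 2, 211 circRNAs were higher in the IP and 787 in the supernatant, and without CIH 3 the counts were 688 and 1050. Without CIH 1, which was run on another slide than CIH 2 and CIH 3, they were 1329 and 1267.

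**Figure D2:**
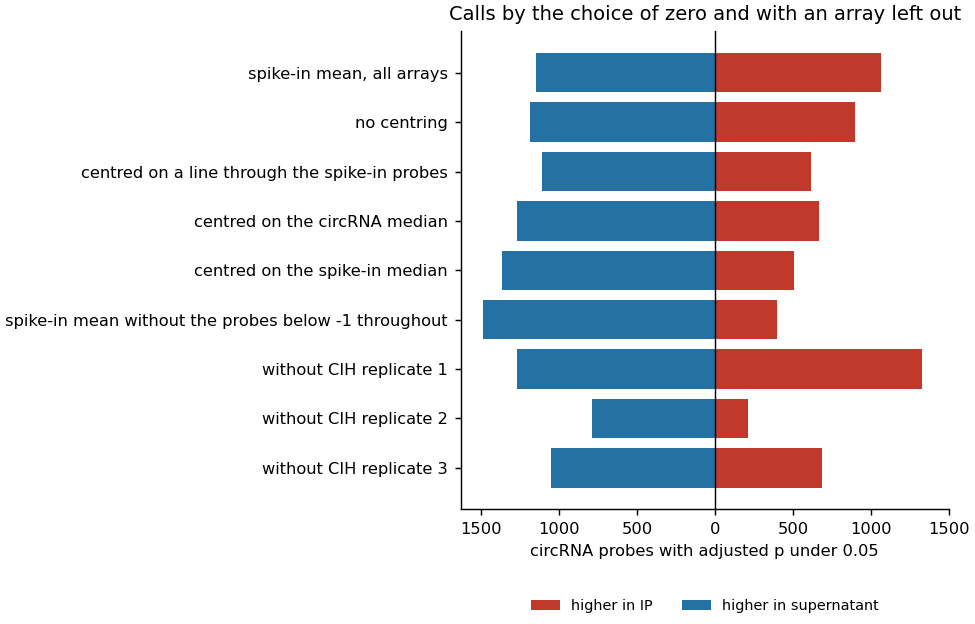
Number of circRNA probes with an adjusted p under 0.05 (x axis), higher in the IP to the right and higher in the supernatant to the left, for 6 choices of the zero and with each CIH array left out. Bars on the right range from 211 without CIH 2 to 1329 without CIH 1, and bars on the left from 787 to 1489.

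Values were correlated from array to array, less by rank than by Pearson's r. Across the 4812 circRNAs Pearson's r of the log2 ratio was 0.883 between CIH 1 and CIH 2. It was 0.836 between CIH 1 and CIH 3 and 0.917 between CIH 2 and CIH 3. Spearman's rho was 0.791, 0.678 and 0.861 for the same pairs. These are across probes that share arrays and dyes, not across independent samples. The median SD of a circRNA over the 3 arrays was 0.25. A total of 1459 circRNAs (30.3%) were below 0 on all 3 arrays, 1983 (41.2%) were above 0 on all 3, and 1370 (28.5%) had mixed signs. At a limit of 2-fold on every array the sides differed more. There 585 circRNAs (12.2%) were below -1 on all 3 arrays and 50 (1.04%) were above 1 on all 3. Of these, 238 and 4 were well above background in both channels throughout. The rest passed the filter through 1 bright channel, so they lie on that side by the way they were kept. Within 0.5 of zero on all 3 arrays lay 1713 circRNAs (35.6%).

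**Figure D3:**
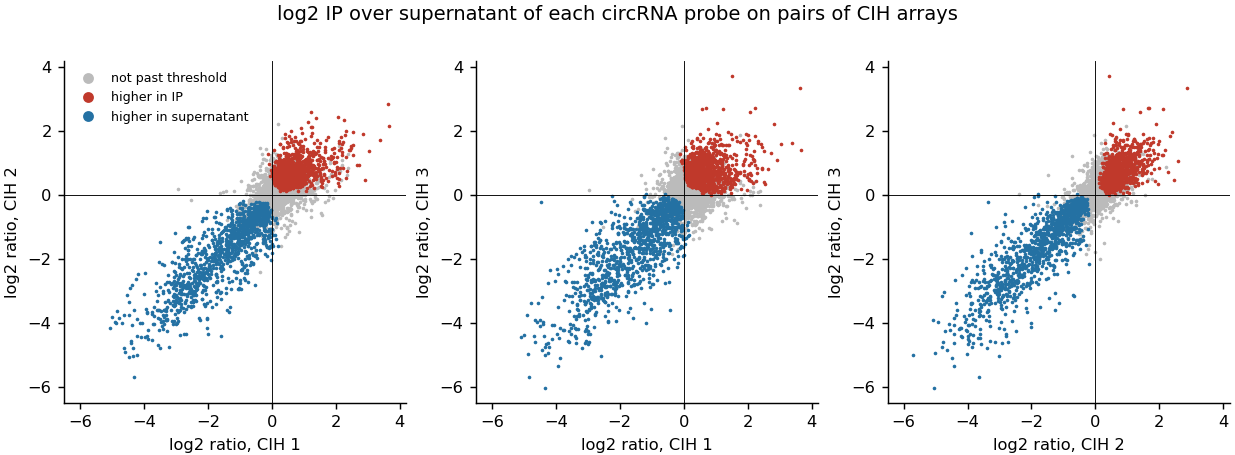
log2 IP over supernatant of each circRNA probe on 1 CIH array (x axis) against another (y axis), coloured by call: red higher in IP, blue higher in supernatant, grey not past the threshold. Pearson's r is 0.883, 0.836 and 0.917 from left to right, and the blue probes reach much farther from zero than the red ones.

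The extremes of the supernatant side were shared by the arrays more than those of the IP side. Of the 100 lowest circRNAs of each array, 53 were among the lowest on all 3. Of the 100 highest, 15 were. Among circRNAs well above background in both channels throughout, the shared numbers were 73 and 4.

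Of the 4812 circRNAs kept, 3594 (74.7%) were well above background in both channels on all 3 CIH arrays, and their ratio is measured on both sides. In this set 741 (20.6%) were called higher in the IP and 677 (18.8%) higher in the supernatant. The IP calls had a median of 0.54 (1.46-fold) and did not exceed 1.68; 26 of them were over 2-fold and 0 over 4-fold. The supernatant calls had a median of -0.96 (1.94-fold) and reached -4.64, with 319 over 2-fold, 132 over 4-fold and 39 over 8-fold. On all 3 arrays, 238 circRNAs of the set were below -1 and 4 were above 1. The median SD over arrays was 0.21 in this set against 0.44 in the other kept circRNAs, in which 1 channel was not above background on every array.

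The balance changed with signal within this set. The 3594 circRNAs were split by mean signal over both channels into quintiles of 719, 719, 718, 719 and 719. From the dimmest to the brightest, 161, 209, 143, 103 and 125 were called higher in the IP, and 87, 129, 137, 142 and 182 higher in the supernatant. The brightest quintile therefore had 25.3% of its circRNAs on the supernatant side and 17.4% on the IP side, and the dimmest 12.1% and 22.4%. The median log2 ratio went from 0.24 in the dimmest quintile to 0.0083 in the brightest. The median SD over arrays was 0.30 in the dimmest and 0.16 in the brightest, so bright circRNAs were measured with less error. The set requires both channels above background, so a dim circRNA with a strongly unequal ratio was left out of it. The lowest 5% lay below -0.94 in the dimmest quintile and below -2.44 in the brightest, and the highest 5% above 0.83 and 0.50. How far this rule, dye response or background has a part in the course was not tested.

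**Figure D4:**
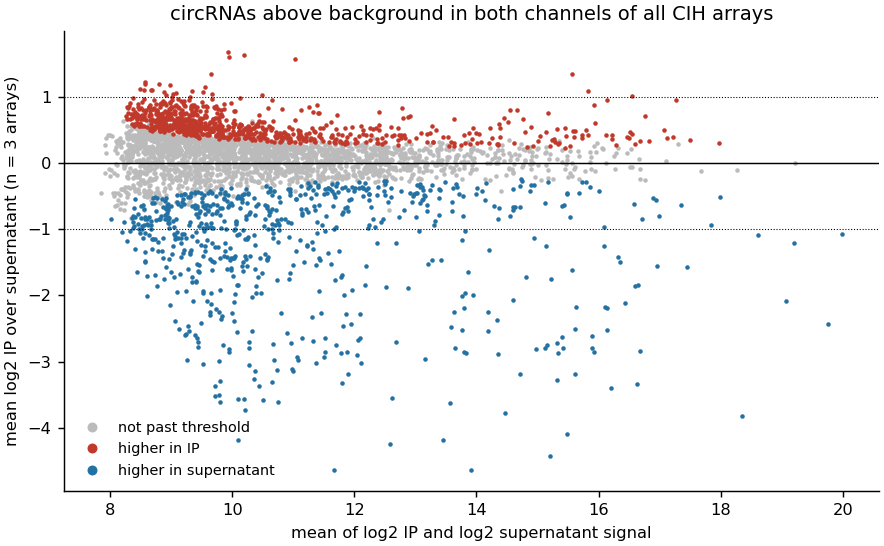
Mean log2 IP over supernatant over the 3 CIH arrays (y axis) against the mean of log2 IP and log2 supernatant signal (x axis) for the 3594 circRNAs above background in both channels throughout, coloured by call; dotted lines mark 2-fold. Calls on the supernatant side reach -4.64 and those on the IP side 1.68.

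The 2 circRNAs of this set with the lowest ratios had 24.9-fold and 24.8-fold more supernatant than IP signal. ASCRP4002919 had log2 signals of 9.10, 9.61 and 9.30 in the IP and of 13.55, 14.24 and 14.22 in the supernatant of CIH 1, 2 and 3. Its log2 ratios were -4.42, -4.64 and -4.84, with a mean of -4.64 ± 0.21 (SD, n = 3), SE 0.11 and limma adjusted p = 1.99e-08. The channels did not come near each other on any array. ASCRP4008435 was among the brightest, with log2 signals of 11.31, 11.58 and 11.82 in the IP and 15.68, 16.37 and 16.66 in the supernatant. Its ratios were -4.34, -4.80 and -4.75, with a mean of -4.63 ± 0.25, SE 0.11 and adjusted p = 1.99e-08. On control 1, 2 and 3 the ratios of ASCRP4002919 were -4.28, -4.97 and -5.49, and those of ASCRP4008435 were -1.34, -4.88 and -6.15. Control 1 was thus the nearest to zero for both, far more so for ASCRP4008435. With normexp background correction, whose offset of 50 shrinks ratios by construction, the means were -2.78 and -3.69, and both calls held.

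The 2 circRNAs with the highest ratios were 3.20-fold and 3.11-fold higher in the IP. ASCRP4011022 had log2 signals of 10.71, 10.76 and 10.80 in the IP and of 8.81, 9.27 and 9.26 in the supernatant. Its log2 ratios were 1.93, 1.48 and 1.62, with a mean of 1.68 ± 0.23 (SD, n = 3), SE 0.14 and limma adjusted p = 1.70e-05. The IP signal was nearly level over the arrays, and the supernatant signal was lowest on CIH 1. ASCRP4008848 had ratios of 2.20, 1.34 and 1.37, with a mean of 1.64 ± 0.49, SE 0.18 and adjusted p = 9.80e-05. Here CIH 1 stood above the other arrays, with the highest IP signal (11.38 against 10.87 and 10.73) and the lowest supernatant signal (9.22 against 9.52 and 9.45). The control ratios were 1.78, 1.13 and 1.5 for ASCRP4011022 and 4.03, 1.87 and 1.97 for ASCRP4008848. With normexp the means were 0.65 and 0.90, and both calls held.

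The other 1218 circRNAs kept were not well above background in 1 of the channels on at least 1 array. These passed the filter through their bright channel alone, so their calls lie on that side by the way they were kept. In 113 the IP was above background on all 3 arrays and the supernatant on none, and 79 of them were called higher in the IP. In 155 the supernatant was above background on all 3 and the IP on none, and all 155 were called higher in the supernatant. A further 583 had the IP above background on all 3 arrays and the supernatant on 1 or 2, with 246 called higher in the IP, and 367 had the reverse, with 313 called higher in the supernatant.

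For circRNAs seen in 1 channel the fold is a lower bound, taken after the mean signals of the 3 arrays were quantile-matched. It sets the bright channel's mean over the higher of the dim spot's own value and the lowest signal well above background on that array. On the IP side 9 of the 113 bounds were over 2-fold, and on the supernatant side 133 of the 155 were. The largest on the IP side was at least 3.53-fold for ASCRP4012660, with an adjusted p of 2.44e-05 from limma, followed by at least 2.60-fold for ASCRP4002064 (adjusted p = 0.00032). Both calls were lost with normexp background correction, with ratios of 0.15 (adjusted p = 0.28) and 0.04 (adjusted p = 0.78). On the supernatant side the largest were at least 12.2-fold for ASCRP4003064 (adjusted p = 8.54e-07) and at least 11-fold for ASCRP4001602 (adjusted p = 6.73e-07). With normexp these stood at -1.25 and -1.09 on the log2 scale and stayed called. These bounds hold for the processed signals only. With the local background subtracted from the median signal, the log2 ratios were 0.83 for ASCRP4012660, 0.56 for ASCRP4002064, -2.93 for ASCRP4003064 and -2.56 for ASCRP4001602, all smaller in size than the bounds, which are 1.82, 1.38, 3.61 and 3.46 on that scale.

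The control arrays enter no test here, and their values are given for the circRNAs called on the CIH arrays. The circRNAs called higher in the IP had medians of 0.56, 0.65 and 0.68 on CIH 1, 2 and 3, and of 0.24, 0.64 and 0.94 on control 1, 2 and 3. Those called higher in the supernatant had medians of -1.27, -1.55 and -1.46 on the CIH arrays and of -0.06, -1.70 and -1.48 on the control arrays. Of these 1145, 629 were below 0 on control 1, 1139 on control 2 and 1045 on control 3. The 238 circRNAs below -1 on all CIH arrays with both channels above background had medians of -0.21, -2.59 and -2.66 on the controls. Control 1 thus stood apart from the other 5 arrays: its SD over circRNAs was 0.71, against 1.23 and 1.34 on the other controls and 1.06 to 1.11 on the CIH arrays. The 3 controls and CIH 1 were on 1 slide and CIH 2 and CIH 3 on another.

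The arrays also carry 50 mRNA probes, each printed in 10 spots, and these are the features with gene names. Such a probe counted as above background when a share over 0.5 of its spots without an outlier mark was. Marked spots were left out of its average and did not remove the probe. RNase R digestion removes linear RNA, so an mRNA probe here may read what was left of it, a circRNA that shares its sequence, or another sequence. What each probe reads was not tested, and a gene name here stands for its probe. Of the 50, 23 passed the detection rule and were fitted together with the circRNAs: 9 (39.1%) were higher in the IP, 5 (21.7%) were higher in the supernatant and 9 were not called. Both channels were above background on all 3 arrays for 17 of the probes. Among the called, Mzb1, Alkbh4 and A_51_P237746 were kept through the IP alone and Acaa2 and Gsta4 through the supernatant alone. The side of these goes with the way they were kept. Over all circRNAs tested the shares were 22.2% and 23.8%. Their median log2 ratio was 0.22, against 0.13 over all circRNAs tested. None of the genes listed for the m6A machinery had a probe. Actb, cytoplasmic actin, was above background on 1 CIH array in the supernatant and on 0 in the IP, and it was not kept.

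The 5 genes higher in the supernatant were Hspb7, Acaa2, Gsta4, Apoe and Gm9789, and Hspb7 and Gsta4 were the only genes of the heart stress and detoxification list (2 of 18) with a probe. Hspb7, whose protein binds filamin C in muscle, had log2 signals of 9.76, 9.63 and 9.82 in the IP and 12.83, 12.79 and 13.15 in the supernatant. Its ratios were -3.03, -3.17 and -3.25, a mean of -3.15 ± 0.11 (SD, n = 3), with an SE of 0.11 and a limma adjusted p of 8.87e-08. On the controls it stood at -0.43, -3.60 and -3.48, again with control 1 nearest to zero. With normexp the CIH mean was -1.73. Acaa2, the mitochondrial thiolase of fatty acid oxidation, had ratios of -2.45, -2.69 and -2.46 (mean -2.53 ± 0.14, adjusted p = 1.92e-05), with the IP above background on 1 of the arrays; with normexp its mean was -0.68. Gsta4, a glutathione transferase that clears products of lipid peroxidation, had ratios of -2.15, -2.93 and -2.38. Its IP signal was above background on 0 arrays, so it was kept through the supernatant alone and its side follows from that. Its supernatant signal was at least 2.50-fold higher on the processed scale, and its log2 ratio was -0.55 with normexp. Apoe, the apolipoprotein of lipoprotein uptake, was lower in the IP on each array at -0.71, -0.96 and -0.64, a mean of -0.77 ± 0.17 with an adjusted p of 0.00049, and its call was lost with normexp (-0.19, adjusted p = 0.26). Gm9789 followed at -0.75 ± 0.19.

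On the IP side the highest was Pex11a, a peroxisome membrane protein that promotes peroxisome division. Its probe had log2 signals of 16.86, 17.02 and 16.89 in the IP and 15.45, 15.79 and 16.14 in the supernatant of CIH 1, 2 and 3. These were the highest of the mRNA probes kept. Whether the probe reads Pex11a RNA was not tested. Its ratios were 1.44, 1.22 and 0.84, a mean of 1.17 ± 0.30 (SD, n = 3) with an SE of 0.12 and a limma adjusted p of 6.91e-05, and the controls stood at 0.82, 1.19 and 1.34. Of the 55 genes of the lipid and energy list, on which Acaa2 was not placed, 4 had a probe. Pex11a and Apoe passed the detection rule and lay on opposite sides, while the probes of Cpt1a and Ppara were above background on 0 arrays. Alkbh4, an AlkB family enzyme distinct from the m6A eraser ALKBH5, had ratios of 0.93, 0.93 and 1.14 (mean 1, adjusted p = 0.0060), with the supernatant above background on 2 arrays. Mzb1, a chaperone of antibody assembly in B cells, had ratios of 0.37, 0.89 and 1.12 and an adjusted p of 0.040, with the supernatant above background on 1 array. Duox1, an NADPH oxidase that makes hydrogen peroxide, was at 0.53, Il2, a T cell cytokine, at 0.43, Gamt, an enzyme of creatine synthesis, at 0.39, and the olfactory receptor Olfr166 at 0.35, all with an adjusted p under 0.05. These 4 calls were not firm: Il2 lost its call in 13 of 22 alternatives, Gamt and Olfr166 in 8 each and Duox1 in 6. The probes A_51_P237746 and A_51_P444920, for which no gene name was found, were at 0.81 and 0.64. Alkbh4 and Mzb1 turned to -0.12 and -0.19 with normexp background correction, and neither passed there. Mzb1 passed in 7 of 21 alternatives and was lost with every other choice of the zero tried. Alkbh4 passed in 16 of 21 and was also lost with the local background subtracted (0.055, adjusted p = 0.79).

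Of the immune and pyroptosis list, Gsdmd and H2-Q7 were the genes with a kept probe, and neither passed. Gsdmd, the pore protein of pyroptosis, had a mean of 0.22 (adjusted p = 0.36). H2-Q7, a nonclassical class I histocompatibility gene with near-identical relatives that its probe may also read, was at 0.72 on CIH 1 and at -0.70 and -0.82 on CIH 2 and 3, so its mean of -0.27 ± 0.85 covers values of opposite sign (adjusted p = 0.40). The controls split in the same shape, with 1.02 on control 1 and -0.93 and -1.09 on control 2 and 3. Lhfp spread as widely, from 1.1 on CIH 1 through 0.22 to -0.51 on CIH 3. Prdx2, a peroxiredoxin that reduces hydrogen peroxide, was at -0.21, -0.13 and -0.16 (adjusted p = 0.37).

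Lhx1, a transcription factor of kidney and brain development, was well above background on all 3 CIH arrays in both channels, with log2 signals of 10.49, 10.84 and 11.27 in the IP and 10.70, 10.78 and 10.98 in the supernatant, and its mean ratio was 0.08. The other genes named here that were not called had mean ratios of 0.08 (Olfr1307), 0.19 (Anxa8), 0.25 (H2-M2) and 0.27 (Lhfp).

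**Figure D5:**
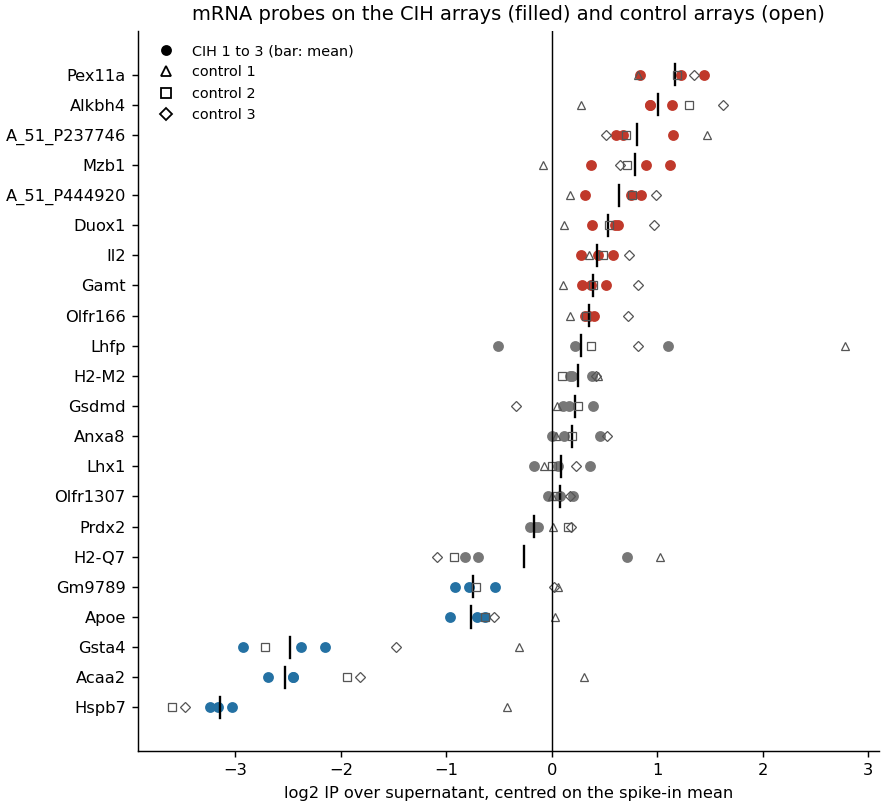
log2 IP over supernatant (x axis) of 22 of the 23 mRNA probes kept: filled circles are the CIH arrays, with a bar at their mean (red higher in IP, blue higher in supernatant, grey not called), and open symbols are the control arrays. Hspb7 lies at -3.15 and Pex11a at 1.17, and control 1 is nearer to zero than the other arrays for Hspb7.

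Technical values of the CIH arrays differed by channel. Between 4521 and 7224 circRNA probes were well above background in the IP and between 4236 and 5804 in the supernatant. Of 135 negative control spots over the 3 arrays, 1 was above background in the IP and 2 in the supernatant. The median spot signal over its local background was 2.00 to 2.47 in the IP and 2.50 to 3.36 in the supernatant. No circRNA spot was saturated, and 21 of 42708 circRNA spots carried an outlier mark, which removed 16 probes.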

How the data were processed

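RNA of each heart sample was split by m6A immunoprecipitation into IP and supernatant, digested with RNase R, mixed with spike-in RNA, labelled with Cy5 (IP) or Cy3 (supernatant) and hybridised together to a circRNA array, per the labels' protocols. The deposited files are scanner output of Agilent Feature Extraction 11.0.1.1, per the file headers. The values used are the processed signals of each channel, an intensity that the authors' software had background-subtracted and dye-normalised per the file headers, with flags for background, saturation and outliers. The deposited log10 ratio of red over green served as a check and matched the recomputed ratio within 0.001 log2 units for the kept probes. Spots whose background-subtracted signal is negative still have a positive processed signal in the files, so ratios of dim spots rest on substituted values.

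From these the log2 of IP over supernatant was computed per probe, spots of a probe were averaged, and each array was centred on the mean of 33 spike-in probes. No loess or quantile step was applied to the tested ratios. For the lower bounds alone, the mean signals over both channels were quantile-matched between the 3 CIH arrays after centring. The deposited intensity values of the 3 CIH arrays were fitted with limma 3.58.1 in R 4.3.3, as an intercept with the channels paired by array and an intensity trend in the moderated variance, two-sided, with Benjamini-Hochberg adjustment over all probes kept and a threshold of 0.05. The limma fit alone was tested on simulated log ratios with known changes. The filter, the centring and the lower bounds were not part of that test. The labels number the replicates alike in both groups, but control arrays enter no fit. The lists and members were chosen with earlier results of these data known. Named circRNAs are the 2 highest and 2 lowest among those called with both channels above background, and the 2 largest lower bounds per direction among those seen in 1 channel; for mRNA, every kept probe with a name, of which 1 is not reported here. Gene names came from the RefSeq table of assembly GRCm38.p6 for 46 of 50 mRNA probes, and 0 circRNA probe numbers matched. Lists of heart stress, lipid and energy, immune and pyroptosis, m6A machinery and cell type marker genes were searched; heart stress and detoxification genes with a kept probe were Hspb7 and Gsta4. Depth does not apply to arrays; 3 arrays limit the precision. Alternatives concerned the background correction together with the dye normalisation, the zero, the detection filter, outlier flags and the slide. Others concerned the variance model, the threshold and each array left out.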

Additional observations from a re-analysis of the deposited data

Results flagged for a closer look

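Prdx2 had a mean log2 ratio of -0.17 over the CIH arrays. All 3 CIH values were below 0 (-0.21, -0.13 and -0.16) and all 3 control values were above 0 (0.01, 0.16 and 0.18). The named circRNAs and the 23 mRNA probes kept were screened for such opposite signs, and Prdx2 alone had them. How many would have them without a difference between the groups was not tested. The difference between the groups was not tested, and the mean itself did not pass the threshold within CIH (limma adjusted p = 0.37).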

How the results depend on the processing

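With channels treated as unpaired (no replicate block), 2275 circRNAs were called in place of 2211, and 2109 were shared; the block changed no other count by over 1.5 times. Total calls were 1365 with both channels required, 13 without moderation, 3357 with array weights, 470 against a 2-fold limit (treat), 948 at unadjusted p with 2-fold, and 998 to 2596 with an array left out. IP calls were 668 with the circRNA median as zero, 507 with the spike-in median, 616 with a line through the spike-ins, 702 with both channels required, 573 with no filter, 2 without moderation, 1832 with array weights, 9 under treat, 198 at unadjusted p with 2-fold, 400 with the spike-in mean without its 2 low probes (chosen after seeing the data), and 211 to 1329 with an array left out. Supernatant calls were 663 with both channels required, 11 without moderation, 461 under treat, 750 at unadjusted p with 2-fold, and 787 to 1267 with an array left out. The mRNA calls (14) became 9 with normexp or both channels required, 0 without moderation, 3 under treat, 5 at unadjusted p with 2-fold, 8 without the 2 low spike-ins, and 5 to 15 with an array left out. The 4 circRNAs named with both channels above background were called under every alternative but no moderation (0 of 4), where adjusted p was 0.058 to 0.11. The array-wide median (0.09) was -0.11 with normexp, -0.025 with local background subtracted, 0 by construction with the circRNA median, 0.055 without centring, -0.055 with the spike-in median, 0.045 with the spike-in line, -0.022 with no filter and -0.11 without the low spike-ins.
Signs reversed for H2-Q7 (0.057), Olfr1307 (-0.16), Gsdmd (-0.21), Lhfp (-0.21), Mzb1 (-0.19) and Alkbh4 (-0.12) with normexp; for Olfr1307 (-0.16), Gsdmd (-0.25), Lhfp (-0.28) and Mzb1 (-0.12) with local background subtracted; for Olfr1307 (-0.010) and Lhx1 (-0.0081) with the circRNA median; for Olfr1307 (-0.066) and Lhx1 (-0.063) with the spike-in median; for Olfr1307 (-0.062) with the spike-in line and (-0.0061) with background-subtracted signal; for Olfr1307 (-0.12), Lhx1 (-0.12) and Anxa8 (-0.0085) without the low spike-ins; and with an array left out for Lhfp (-0.14 without CIH 1, to 0.66), H2-Q7 (0.0070 without CIH 3, down to -0.76) and Lhx1 (-0.060 without CIH 3, to 0.21). With both channels required fewer probes were tested, and treat tests against a stricter limit. Without moderation the same 4812 circRNAs were tested at the same threshold, each with its own variance from 3 arrays. The causes of the changes in count were not tested. With 3 arrays and dim spots near a median signal 2.00 to 2.47 times background in the IP, small ratios of dim circRNAs are the least certain.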

Other observations

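Mixed signs over the 3 arrays were common (1370 of the 4812 circRNAs kept). Few circRNAs stood beyond 0.5 on 1 side of zero on 1 array and beyond 0.5 on the other side on the other arrays. CIH 1, on another slide than CIH 2 and CIH 3, carried more of them than the other CIH arrays. With limits of 0.5 on either side of zero, 7 circRNAs were above 0.5 on CIH 1 and below -0.5 on CIH 2 and CIH 3, and 2 were the reverse. Of these, 4 and 1 were well above background in both channels throughout. Over all circRNAs kept the counts were 0 and 0 for CIH 2 alone and 1 and 1 for CIH 3 alone. The 7 had medians of 0.56, -0.18 and 0.85 on control 1, 2 and 3.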
